A study of Mus musculus with 6 samples.

Results

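The genes described here are 10 genes of cellular iron handling in KP2 mouse pancreatic cancer cells: the ferritin subunits Fth1 and Ftl1, the iron exporter Slc40a1, ceruloplasmin (Cp), the transferrin receptor Tfrc, the iron importer Slc11a2, the ferrireductase Steap3, the siderophore-binding protein Lcn2 and the iron regulatory proteins Aco1 and Ireb2. They were picked by symbol out of the 41388 genes counted in each library, and all 10 passed the filter on low counts. The choice leaned on measured values, since Cp had already been seen at a very low level in the knockout that persisted in the rescue. Its values are therefore given as a description, with no test. The libraries came from 3 groups of 2: KO cells with rescue (rescue), Irak4 knockout (KO) cells and wild-type cells. All are KP2, derived from a tumour of a KPC mouse (pancreatic cancer driven by engineered alleles) of strain C57BL/6J and fewer than 10 passages old, and the knockout was made with lentiviral CRISPR guides against Irak4, a kinase of Toll-like and interleukin-1 receptor signalling. The labels do not describe the rescue construct or say whether the knockout is 1 clone, whether wild-type cells carried a vector, or whether replicates were separate cultures. The p-values then cover no more than library-to-library variation, which may be technical.

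Cells take up transferrin-bound iron through the transferrin receptor, reduce it in the endosome, and pass it to the cytosol, where what is not used is stored inside ferritin shells. Ferroportin, the product of Slc40a1, is the known route of cellular iron export, and ceruloplasmin, a copper-containing ferroxidase, oxidises the iron that leaves so that transferrin can bind it. Ceruloplasmin and Lcn2 are also acute-phase proteins made in inflammation. When iron is scarce the iron regulatory proteins bind hairpins in messenger RNAs, the iron-responsive elements. A hairpin in the 5′ UTR then blocks translation, as in ferritin and ferroportin, while hairpins in the 3′ UTR protect the transferrin receptor RNA from decay. RNA counts therefore do not show the translational arm of this control.

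The hairpins are shown because they are the sequence feature through which iron acts on these transcripts. GENCODE M21 UTRs (build GRCm38) were searched on the sense strand for a C, 5 bases, the loop CAGTGN, and 5 bases that pair with the first 5, G with U allowed. Of the 10 genes, 4 held a match, with 7 elements in all. The loop is in capitals, and 6 further bases are printed on each side of the match. The 5′ UTR elements are at chr19:9982732-9982760 (plus strand) for Fth1, chr7:45459779-45459807 (minus) for Ftl1 and chr1:45925465-45925493 (minus) for Slc40a1. The 4 elements matched in the Tfrc 3′ UTR are on the plus strand at chr16:32631219-32631247, chr16:32631598-32631626, chr16:32631663-32631691 and chr16:32631710-32631738, in that order. A hairpin of a looser form would be missed by this pattern.
Fth1 5′ UTR: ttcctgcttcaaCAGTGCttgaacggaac
Ftl1 5′ UTR: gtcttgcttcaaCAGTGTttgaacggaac
Slc40a1 5′ UTR: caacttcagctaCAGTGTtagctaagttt
Tfrc 3′ UTR, element 1: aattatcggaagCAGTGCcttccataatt
Tfrc 3′ UTR, element 2: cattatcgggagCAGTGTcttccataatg
Tfrc 3′ UTR, element 3: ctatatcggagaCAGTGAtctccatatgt
Tfrc 3′ UTR, element 4: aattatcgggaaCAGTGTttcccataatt
The Fth1 and Ftl1 elements were identical at 26 of 29 bases, while each matched the Slc40a1 element at 13 of 29. Of 21901 protein-coding genes searched, 0.142% held a match in a 5′ UTR and 0.589% in a 3′ UTR. The other 6 genes had no match of these letters in their annotated UTRs.

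Library totals ran between 7605328 and 11505983 counts. Levels below are normalised CPM (the count scaled to a common library size, with totals adjusted by TMM), and fold changes are fitted by edgeR on the log2 scale with their standard error (SE). Irak4 RNA was at 492 and 211 CPM in the rescue libraries, 20.4 and 21.8 in KO and 37.9 and 37.6 in wild type. Its KO against wild type difference (log2 -0.84, SE 0.33) did not pass the threshold, with an adjusted p of 0.057 in edgeR's quasi-likelihood test. Rescue was above wild type by 3.22 on the log2 scale (SE 0.30, edgeR adjusted p = 2.1e-05). Irak4 RNA in rescue was thus far above its wild-type level and uneven between the libraries, and its part in the rescue comparisons was not tested. Irak4 shares exons with Twf1 on the opposite strand. Of 9 pancreatic epithelial markers, 6 were at 1 CPM or more in every library, keratins 8, 18 and 19 among them, while Epcam reached at most 0.119 CPM. Their sum was 4727 to 5597 CPM in rescue, 3845 to 3943 in KO and 6679 to 6991 in wild type, lowest in KO, and its part in the results below was not tested. Most of it was keratins 8, 18 and 19, which were lowest in KO, as was Sox9. Cdh1 was lowest in rescue instead, at 141 and 97.6 CPM, with 176 and 233 in KO and 363 and 393 in wild type. Muc1 was also lowest in rescue. Of 7 erythroid markers, 5 were at 0 everywhere, and of 8 macrophage markers 4 were at 0 everywhere, including Adgre1 and Lyz2. The macrophage sum was 43.3 to 56.9 CPM in rescue, 74.4 to 79.6 in KO and 68.9 to 82.3 in wild type, lowest in rescue, and was mostly Cd14 with some Cd68. The summed hepatocyte markers were at 3.06 to 6.59 CPM in rescue, 5.52 to 7.33 in KO and 67.7 to 68.9 in wild type, with Alb at no more than 1 count in a library. Apob made up nearly all of it in wild type and most of it, followed by Trf, in rescue and KO. The endothelial sum was 14.9 to 38.2 CPM in rescue, 16.0 to 30.9 in KO and 4.63 to 5.47 in wild type, with Pecam1 at or near 0. Most of it was Cdh5, while Kdr ran the other way, at no more than 0.133 CPM in rescue and KO and at 1.54 and 1.66 CPM in wild type. The fibroblast sum stayed at or below 22.5 CPM and the acinar sum at or below 2.06 CPM.

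The ferritin subunits, which build the shell that stores iron, were both higher in KO than in wild type and both lower in rescue than in KO. Fth1 (ENSMUSG00000024661, chr19:9982703-9985092), the heavy chain with ferroxidase activity, was at 723 and 644 CPM in rescue, 984 and 1074 in KO and 623 and 676 in wild type. Both KO libraries stood above all others, and the rescue and wild-type libraries overlapped. The KO against wild type log2 fold change was 0.66 (SE 0.09), with an adjusted p of 1.9e-04 in edgeR's quasi-likelihood test with Benjamini-Hochberg adjustment over 12339 genes, as in all that follow. Rescue against KO gave -0.59 (SE 0.09, edgeR adjusted p = 0.004) and rescue against wild type 0.07 (SE 0.09, edgeR adjusted p = 0.619). In bulk RNA, fewer cells with a transcript and less of it in each cell cannot be told apart.

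Ftl1 (ENSMUSG00000050708, chr7:45457944-45459884), the light chain that helps the iron core form, was at 167 and 153 CPM in rescue, 225 and 244 in KO and 136 and 150.5 in wild type. The 3 groups did not overlap, with rescue just above wild type. KO against wild type was 0.71 on the log2 scale (SE 0.09, edgeR adjusted p = 9.3e-05), and rescue against KO was -0.55 (SE 0.09, edgeR adjusted p = 0.004). Rescue against wild type was 0.16 (SE 0.09, edgeR adjusted p = 0.242). The chains kept a near-constant proportion: per kilobase of listed length, Fth1 stood to Ftl1 at 6.69 and 6.51 in rescue, 6.77 and 6.82 in KO and 7.06 and 6.95 in wild type. Ferritin has many processed copies in the genome, and the 13 other rows named Fth or Ftl held 24 counts over all libraries, at most 3 in any library. How reads shared with such copies were counted is not given in the sources used here.

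Slc40a1, whose protein ferroportin exports iron, was higher in KO than in wild type, with the largest fold change in that direction among the 10 genes. The gene (ENSMUSG00000025993, chr1:45908068-45926523) was at 25.6 and 17.98 CPM in rescue, 47.1 and 56.0 in KO and 19.7 and 20.1 in wild type. The KO libraries were the highest by a clear margin, and the rescue libraries lay on both sides of wild type. The log2 fold change was 1.37 in KO against wild type (SE 0.15, edgeR adjusted p = 3.8e-05), a 2.58-fold difference, and rescue against KO was -1.23 (SE 0.15, edgeR adjusted p = 0.002). Rescue against wild type was 0.13 (SE 0.17, edgeR adjusted p = 0.619).

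Cp, the ferroxidase that acts beside ferroportin, ran the other way and is the gene the group was built around. The gene (ENSMUSG00000003617, chr3:19957054-20009145) was at 16.4 and 18.1 CPM in rescue, 27.7 and 36.3 in KO and 425 and 443 in wild type. These rest on 129 and 136 counts in rescue, 332 and 317 in KO and 3576 and 4532 in wild type. The 3 groups did not overlap, and rescue was the lowest, below KO. The fitted levels were 3.97% of wild type in rescue and 7.33% of wild type in KO, or log2 fold changes of -4.65 (SE 0.13) and -3.77 (SE 0.12). Rescue against KO was -0.88 (SE 0.14), so the difference from wild type was larger with the rescue than without it. Leaving out any 1 library kept the KO against wild type value between -3.97 and -3.59 and the rescue against KO value between -1.07 and -0.69. An exon of Cp overlaps Hps3 on the opposite strand, which had 1436 counts over all 6 libraries. The hepatocyte list above, through Apob, was high in the same libraries as Cp, and its part in the Cp values was not tested.

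**Figure D1:**
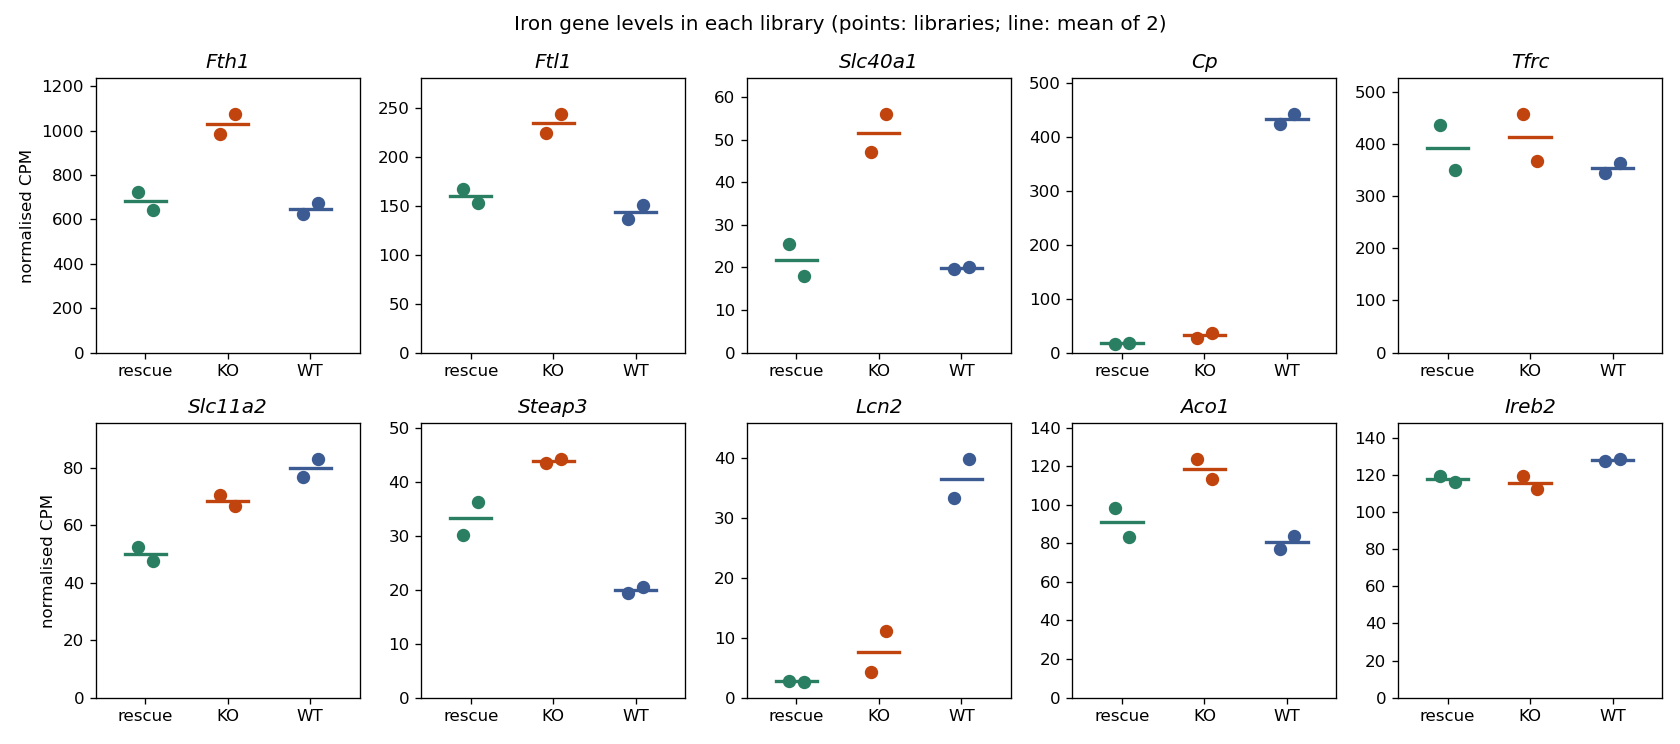
Normalised CPM (y axis, from 0, scaled for each gene) of the 10 iron genes in each library, by group on the x axis, with points for libraries and a line for the mean of 2. Fth1, Ftl1, Slc40a1 and Aco1 peak in KO and lie near each other in rescue and wild type, whereas Cp and Lcn2 are high in wild type only.

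Among the uptake genes, Tfrc, the receptor for transferrin-bound iron, was not called in any comparison. Tfrc (ENSMUSG00000022797, chr16:32608920-32632794) was at 436 and 350.4 CPM in rescue, 458 and 368 in KO and 345 and 364 in wild type. Within rescue and within KO the libraries differed by more than any 2 group means did, and the lower KO library lay just above the higher wild-type library. KO against wild type was 0.22 (SE 0.12, edgeR adjusted p = 0.159), rescue against KO -0.07 (SE 0.12, edgeR adjusted p = 0.733) and rescue against wild type 0.15 (SE 0.12, edgeR adjusted p = 0.425). The KO against wild type call depended on the fit, passing without a filter on low counts, with the wild-type and KO libraries alone, and without either rescue library. The transcript with the 4 matched hairpins in its 3′ UTR was thus one for which no difference was called. Per kilobase, Fth1 stood to Tfrc at 11.85 and 13.13 in rescue, 15.36 and 20.83 in KO and 12.88 and 13.25 in wild type, highest in both KO libraries.

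Steap3, the endosomal reductase that turns ferric iron from transferrin into ferrous iron, was higher in KO and partly lower again in rescue. Steap3 (ENSMUSG00000026389, chr1:120190757-120272705) was at 30.2 and 36.4 CPM in rescue, 43.5 and 44.2 in KO and 19.5 and 20.4 in wild type. The groups were apart from each other, with rescue between KO and wild type. Steap3 differed by 1.13 on the log2 scale in KO against wild type (SE 0.12, edgeR adjusted p = 2.6e-05), rescue against KO -0.40 (SE 0.11, edgeR adjusted p = 0.037) and rescue against wild type 0.73 (SE 0.12, edgeR adjusted p = 0.002).

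Slc11a2 encodes DMT1, which carries ferrous iron across the endosomal membrane into the cytosol. It (ENSMUSG00000023030, chr15:100387898-100425072) was at 52.5 and 47.5 CPM in rescue, 70.5 and 66.6 in KO and 76.8 and 83.1 in wild type. The groups did not overlap, and the order was rescue lowest, KO next and wild type highest. It fell in rescue against KO by 0.45 on the log2 scale (SE 0.10, edgeR adjusted p = 0.012) and in rescue against wild type by 0.68 on the log2 scale (SE 0.09, edgeR adjusted p = 4.6e-04). KO against wild type was -0.22 (SE 0.09, edgeR adjusted p = 0.064), and this difference passed with a stricter filter, with the 2 groups alone and without either rescue library. Some Slc11a2 isoforms are known to carry a 3′ hairpin of a looser form than the pattern searched here.

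Lcn2, a secreted protein that binds bacterial siderophores and is induced in inflammation, shared with Cp the low level in both edited groups. Lcn2 (ENSMUSG00000026822, chr2:32384633-32387797) was at 2.79 and 2.66 CPM in rescue, 4.26 and 11.1 in KO and 33.4 and 39.9 in wild type. Wild-type libraries were the highest by far, rescue the lowest, and the KO libraries differed from each other more than those of either other group. KO against wild type was -2.32 (SE 0.28, edgeR adjusted p = 7.0e-05), between -3.10 and -1.73 with 1 library left out, and rescue against wild type was -3.74 (SE 0.35, edgeR adjusted p = 2.2e-05). Rescue against KO was -1.42 (SE 0.43, edgeR adjusted p = 0.047), on 22 and 20 counts in rescue and 51 and 97 in KO, and leaving out 1 library at a time moved it between -2.02 and -0.65.

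Of the iron regulatory proteins, which sense iron and bind the hairpins, Aco1 was higher in KO than in wild type, and for Ireb2 no difference was called. Aco1 encodes IRP1, which is a cytosolic aconitase when it holds an iron-sulfur cluster. It (ENSMUSG00000028405, chr4:40143081-40198338) was at 98.5 and 83.5 CPM in rescue, 124 and 114 in KO and 77.1 and 83.8 in wild type. Both KO libraries were the highest, and the rescue and wild-type libraries overlapped. KO against wild type was 0.56 (SE 0.10, edgeR adjusted p = 8.5e-04), rescue against KO -0.38 (SE 0.10, edgeR adjusted p = 0.028) and rescue against wild type 0.18 (SE 0.10, edgeR adjusted p = 0.246). Ireb2 encodes IRP2, which is controlled mainly by iron-dependent degradation of the protein. It (ENSMUSG00000032293, chr9:54863755-54912534) was at 119.6 and 116.3 CPM in rescue, 119.4 and 112.5 in KO and 127.6 and 128.8 in wild type. Wild type was the highest by a few CPM, and no Ireb2 difference was called: KO against wild type was -0.14 (SE 0.08, edgeR adjusted p = 0.164), rescue against KO 0.02 (SE 0.08, edgeR adjusted p = 0.880) and rescue against wild type -0.12 (SE 0.08, edgeR adjusted p = 0.323).

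Without Cp, 5 of the 9 genes were called higher in KO than in wild type (Fth1, Ftl1, Slc40a1, Steap3 and Aco1), 1 lower (Lcn2) and 3 were not called. Over all genes tested, 46.8% were called in this comparison, 23.2% higher and 23.5% lower, and since the genes were chosen with these differences in view nothing is read from their share. All 3 genes with a 5′ UTR hairpin were among those called higher, and nothing is read from this either. Of 23 other tested genes with such a match, 7 were called higher and 6 lower. The median log2 fold change was 0.56 over the 9 genes and 0.01 over all genes tested. In all 9 the KO and wild-type libraries did not overlap, which held for 76.6% of the genes tested. All 6 calls stood under each of the 13 alternatives run, including leaving out any 1 library.

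In rescue against KO, 7 of the 9 were called lower (Fth1, Ftl1, Slc40a1, Slc11a2, Steap3, Lcn2 and Aco1) in edgeR, and 5 in DESeq2, which did not call Steap3 or Lcn2. None was higher in either tool, or at an unadjusted p under 0.05 in edgeR. Over all genes tested 14.2% were called in this comparison, 5.88% lower and 8.35% higher, and the median was -0.45 over the 9 genes and -0.0037 over all. Nothing is read from the share of the 9, which were chosen with earlier results of these data known. The KO libraries also serve in the comparison above, so genes high in them tend to be lower here. Groups did not overlap for 7 of the 9, against 59.4% of the genes tested. These calls rested on the libraries more than the others did. Without KO replicate 2 only Slc40a1 was still called (1 of 9). Without wild type replicate 1, without wild type replicate 2 or without KO replicate 1 there were 4, and with only the rescue and KO libraries in the fit there were also 4. Slc40a1 was called in each of the 6 fits that left out 1 library, Fth1 and Ftl1 in 5, Slc11a2 in 4, Lcn2 in 2, and Steap3 and Aco1 in 1.

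In rescue against wild type, 1 of the 9 was called higher (Steap3), 2 lower (Slc11a2 and Lcn2) and 6 were not called. Over all genes tested 22.2% were called, 10.2% higher and 12.0% lower, and nothing is read from the share of the 9 here either. The median was 0.13 over the 9 genes and 0.01 over all. Groups did not overlap for 5 of the 9, against 61.6% of the genes tested. Without rescue replicate 2 the count was 5, with Tfrc and Aco1 added. The 3 comparisons share their libraries in pairs, so their values stand side by side and are not independent.

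**Figure D2:**
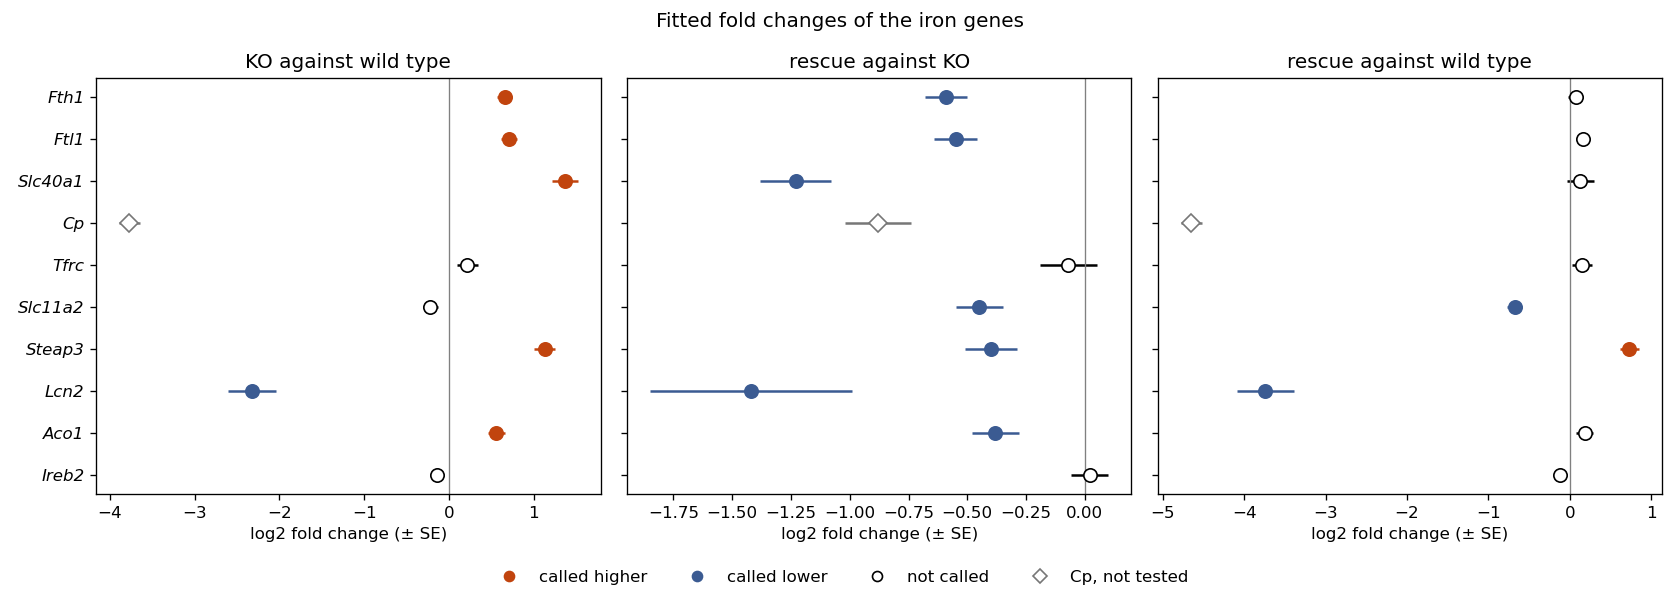
Fitted log2 fold change (x axis, a different scale in each panel) of each iron gene for KO against wild type, rescue against KO and rescue against wild type, with bars of ± 1 SE that are hidden where they are narrower than the marker. Filled points are called at an adjusted p under 0.05 and open points are not, and the diamond is Cp, which was not tested; Fth1, Ftl1, Slc40a1 and Aco1 are called higher in KO, called lower in rescue against KO and not called in rescue against wild type.

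Other genes with the hairpin pattern were counted in the same way. Of 23 other tested genes with a 5′ UTR match, 7 were called higher and 6 lower in KO against wild type, or 30.4% and 26.1% beside 23.2% and 23.5% of all genes tested. Of 97 other tested genes with a 3′ UTR match, 24 were called higher (24.7%) and 32 lower (33.0%). In rescue against KO the 5′ matches had 2 higher and 1 lower (8.70% and 4.35%), and the 3′ matches had 10 higher and 9 lower (10.3% and 9.28%), beside 8.35% and 5.88% of all genes. In rescue against wild type the 5′ matches had 2 higher and 2 lower (8.70% each way), and the 3′ matches had 7 higher and 20 lower (7.22% and 20.6%), beside 10.2% and 12.0% of all genes. A match is a run of letters that can fold this way and is not shown to bind a protein.

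Levels were compared between genes as RPKM (normalised CPM per kilobase of listed gene length). Fth1 was the highest of the 10 in every group, with means of 789 RPKM in rescue, 1188 in KO and 749 in wild type, and was followed by Ftl1 and Tfrc in every group. The lower places were taken by different genes. Cp was the fourth in wild type, with a mean of 45.3 RPKM, and the ninth in rescue (1.80 RPKM) and KO (3.35 RPKM). Lcn2 was the last in rescue (1.18 RPKM) and KO (3.34 RPKM) and the seventh in wild type (15.9 RPKM). Slc40a1, the last in wild type at 2.21 RPKM, stood above Cp in rescue (2.42 RPKM) and KO (5.73 RPKM). Exporter RNA was above that of the ferroxidase per kilobase in both edited groups, and far below it in wild type. Since Cp was picked for its low level in KO and rescue, this order follows in part from the choice. In rescue replicate 2 the levels were close, at 2.00 RPKM for Slc40a1 and 1.89 RPKM for Cp. Neighbours whose libraries overlapped were Ireb2 and Aco1 in rescue, Cp and Lcn2 in KO, and Aco1 and Lcn2 in wild type. All other neighbours in the order were apart in both libraries.

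**Figure D3:**
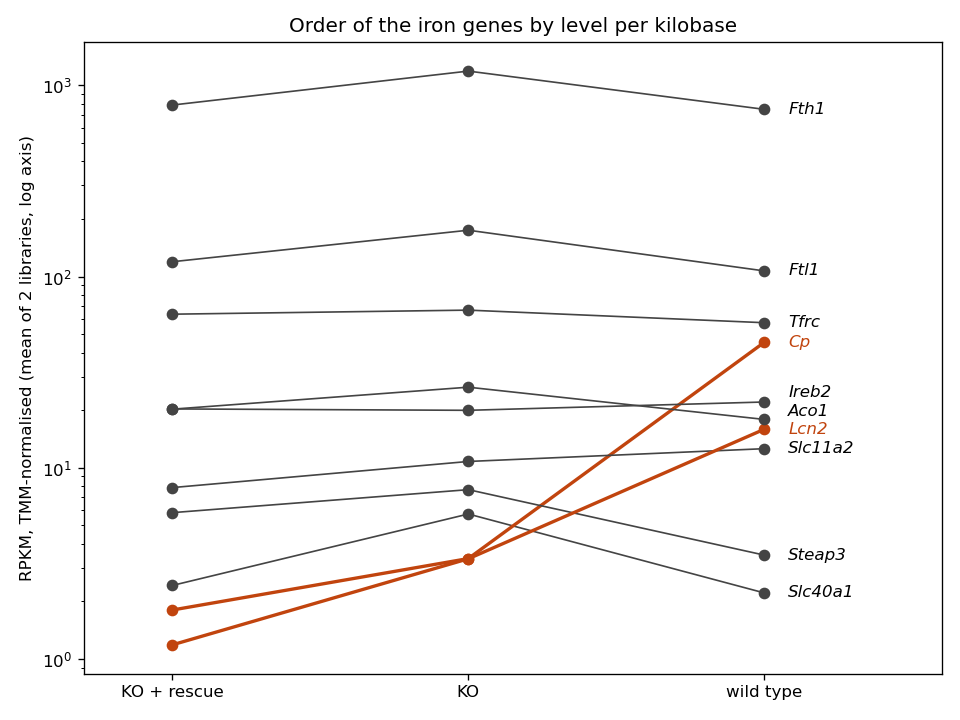
Mean RPKM of 2 libraries (TMM-normalised, y axis on a log scale) of each iron gene in rescue, KO and wild type (x axis), with lines joining a gene's means. Cp and Lcn2, in orange, are at 45.3 and 15.9 RPKM in wild type and at 3.35 RPKM or less in rescue and KO.

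The genes most like Cp over the 6 libraries were looked for among 9954 genes, by the root mean square difference between centred log2 profiles. The closest was Enpp2, which encodes autotaxin, with a difference of 0.17 and levels of 1.14 and 1.60 CPM in rescue, 2.01 and 2.29 in KO and 31.6 and 31.7 in wild type. Clic6 (0.40), Apob (0.44), Gas1 (0.50) and C3 (0.53) followed. C3, the central complement component, was at 0.507 and 1.73 CPM in rescue, 2.17 and 5.04 in KO and 29.7 and 31.7 in wild type. Apob, the structural protein of low-density lipoprotein, was at 5.07 and 2.00 CPM in rescue, 4.43 and 5.50 in KO and 66.7 and 65.1 in wild type. All 5 were at their highest in both wild-type libraries, and they were chosen for this pattern, so no test is given here. The search took only genes with a mean of at least 5 CPM, which all 5 reached through their wild-type libraries. Their levels in rescue and KO were low, so the size of their drop is loosely measured. C3 is tested below because it is also on the acute-phase list, and its values there are not separate support for this likeness.

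The other genes of iron handling were followed as lists, leaving out the 10. Their counts stand beside shares over all genes tested of 23.2% higher and 23.5% lower in KO against wild type. These shares were 8.35% and 5.88% in rescue against KO, and 10.2% and 12.0% in rescue against wild type. Of 4 tested genes of ferritin turnover, Pcbp1, an iron chaperone that loads ferritin (log2 0.49, edgeR adjusted p = 7.5e-04), and Herc2, a ligase for the ferritinophagy receptor (0.31, edgeR adjusted p = 0.007), rose in KO against wild type. Both fell in rescue against KO, by 0.32 for Pcbp1 (edgeR adjusted p = 0.031) and by 0.29 for Herc2 (edgeR adjusted p = 0.035). Both calls in rescue against KO were lost when any 1 wild-type or KO library or rescue replicate 2 was left out. Neither gene was called in rescue against wild type. Ncoa4, the ferritinophagy receptor itself, was at 12.6 and 14.5 CPM in rescue, 16.0 and 15.2 in KO and 15.2 and 17.2 in wild type, and was not called.

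Of 9 tested genes of uptake and reduction, 2 rose and 2 fell in KO. Lrp1, an endocytic receptor that clears heme bound to hemopexin among many ligands, was at 122 and 261 CPM in rescue, 95.9 and 90.5 in KO and 389 and 281 in wild type. It fell in KO against wild type (log2 -1.84, SE 0.26, edgeR adjusted p = 2.0e-04) and rose in rescue against KO (1.04, SE 0.26, edgeR adjusted p = 0.025). The ferrireductase Steap2 fell by 0.45 on the log2 scale in KO (edgeR adjusted p = 0.001), and the endolysosomal channel Mcoln1 rose by 0.39 (edgeR adjusted p = 0.005). In rescue against wild type 1 rose (Slc39a8) and 3 fell, Steap1 and Steap2 among them. The 2 that rose in KO were 1 in DESeq2 and 0 without wild type replicate 1, and the 3 that fell in rescue were 1 without wild type replicate 1 and 0 without wild type replicate 2.

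Of 4 tested export genes, 2 rose and 1 fell in KO. Heph encodes hephaestin, a membrane ferroxidase related to ceruloplasmin. It was at 0.380 and 1.20 CPM in rescue, 1.504 and 1.26 in KO and 0.119 and 0.0977 in wild type, on 12 counts in rescue, 29 in KO and 2 in wild type. The ratio of KO to wild type was 13.1, with an exact 95% interval of 3.31 to 113 that covers counting error only. Heph was called higher in KO, but it passed the filter on low counts through its KO libraries, where it is high. Nothing is read from that call for this reason, and with the stricter filter 1 export gene was called higher. Cp, even at its lowest, was more than 10 times Heph in CPM in every library. The heme exporter Flvcr1 rose in KO against wild type (0.72, edgeR adjusted p = 0.002) and fell in rescue against KO (-0.52, edgeR adjusted p = 0.035). App, whose product has been linked to ferroportin at the cell surface, fell in KO (-0.58, edgeR adjusted p = 2.2e-04) and was also lower in rescue than in wild type (-0.53, edgeR adjusted p = 0.001).

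Of 4 other genes that control the iron regulatory proteins, Fbxl5 and Cul1 were called. Fbxl5, the iron-sensing subunit of the ligase that degrades IRP2, was at 147 and 158 CPM in rescue, 143 and 134 in KO and 201 and 198 in wild type. It fell in KO against wild type (-0.52, SE 0.08, edgeR adjusted p = 3.4e-04) and in rescue against wild type (-0.38, SE 0.08, edgeR adjusted p = 0.006), and was not called in rescue against KO. Cul1 of the same ligase rose in KO (0.22, edgeR adjusted p = 0.047). That call was lost with size-factor scaling, in DESeq2, with no filter, with the stricter filter and with the replicate block. It was also lost without either wild-type library or either KO library. Of 5 other transcripts known to carry the hairpin, Cdc42bpa fell in KO against wild type (-0.89, edgeR adjusted p = 1.4e-04) and in rescue against wild type (-0.49, edgeR adjusted p = 0.013).

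Cp and Lcn2 being acute-phase proteins, a list of siderophore and acute-phase genes was followed too. Of its 19 genes found, 4 besides Lcn2 were expressed highly enough to be tested, and in KO against wild type 3 of these fell: Lbp, which binds lipopolysaccharide (-5.46, edgeR adjusted p = 1.5e-09), C3 (-3.16, edgeR adjusted p = 9.9e-06) and Bdh2, an enzyme proposed to make a mammalian siderophore (-0.99, edgeR adjusted p = 0.006). Lbp was at 2.54 and 2.53 CPM in rescue, 2.17 and 2.06 in KO and 93.0 and 95.6 in wild type. Lbp rested on 20 and 19 counts in rescue and 26 and 18 in KO. C3 rested on 4 and 13 counts in rescue and 26 and 44 in KO. The other tested gene, Slc39a14, did not fall with them in KO against wild type (-0.04, edgeR adjusted p = 0.718). Slc39a14 was at 107.3 and 107.5 CPM in rescue, 105.7 and 97.8 in KO and 103.4 and 106.0 in wild type. None of the 4 was called in rescue against KO by edgeR or DESeq2, and 1 had an unadjusted p under 0.05 in edgeR. Lbp (-5.21, edgeR adjusted p = 2.6e-09) and C3 (-4.78, edgeR adjusted p = 5.2e-06) were also lower in rescue than in wild type, whereas Bdh2 was not called there (-0.43, edgeR adjusted p = 0.234).

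Copper genes matter here because ceruloplasmin is loaded with copper in the secretory pathway by Atp7b. Atp7b was at 16.9 and 32.4 CPM in rescue, 9.44 and 5.16 in KO and 48.9 and 42.0 in wild type. It fell in KO against wild type (-2.59, SE 0.28, edgeR adjusted p = 3.3e-05) and rose in rescue against KO (1.70, SE 0.30, edgeR adjusted p = 0.006). Atp7b was still lower in rescue than in wild type (-0.89, SE 0.25, edgeR adjusted p = 0.025). Any link between Atp7b and the Cp values was not tested. Of 15 tested copper genes, 4 rose and 3 fell in KO, 1 rose and 2 fell in rescue against KO, and 4 fell in rescue against wild type. The metallothionein Mt2 rose in KO (0.64, edgeR adjusted p = 2.6e-04) and fell in rescue against KO (-0.55, edgeR adjusted p = 0.005). Atp7a, the related copper pump, fell in KO (-0.71, edgeR adjusted p = 5.3e-04).

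Iron-using pathways made up the longest lists. Of 11 cytosolic iron-sulfur assembly genes, 6 rose and 1 fell in KO (54.5% and 9.09%). Ciapin1 (0.72, edgeR adjusted p = 7.7e-04), Nubp2 (0.64, edgeR adjusted p = 1.0e-03) and Nubp1 (0.61, edgeR adjusted p = 0.003) were in front. Nubp1 and Nubp2 were the 2 called lower in rescue against KO, and none of the 11 was called in rescue against wild type by edgeR or DESeq2, with 2 at an unadjusted p under 0.05 in edgeR. Of 23 mitochondrial iron and iron-sulfur genes, 10 rose and 2 fell in KO (43.5% and 8.70%). They included the transporter Abcb10 (0.79, edgeR adjusted p = 1.3e-04), which rose, and the iron importer Slc25a37 or mitoferrin-1 (-0.70, edgeR adjusted p = 1.4e-04), which fell. In rescue against KO 4 fell and 1 rose, and in rescue against wild type 2 rose and 1 fell. Of 18 heme genes, 8 rose and 4 fell in KO (44.4% and 22.2%). Those that rose were led by the porphyrin exporter Abcg2 (1.17, edgeR adjusted p = 1.7e-05) and ferrochelatase, Fech, which inserts iron into heme (0.78, edgeR adjusted p = 2.4e-04). Heme oxygenase Hmox1 was higher in rescue than in KO (0.63, edgeR adjusted p = 0.013). It was lowest in KO, at 132 and 173 CPM in rescue, 110 and 86.2 in KO and 134 and 126 in wild type. The number higher in KO depended on the fit: DESeq2 called 3 heme, 6 mitochondrial and 3 cytosolic genes, and without wild type replicate 1, wild type replicate 2 or KO replicate 1 the mitochondrial count was 5 or 6. The heme count was 3 without wild type replicate 1 and 4 without KO replicate 1, and the cytosolic count was 3 without wild type replicate 2 or KO replicate 1.

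Over all lists, 92 other genes were tested of 119 found. In KO against wild type 33 rose and 17 fell, with a median log2 fold change of 0.10, or 35.9% and 18.5% beside the 23.2% and 23.5% of all genes. In rescue against KO 4 rose and 12 fell, with a median of -0.12, or 4.35% and 13.0% beside 8.35% and 5.88% of all genes. In rescue against wild type 5 rose and 16 fell, with a median of 0.03, or 5.43% and 17.4% beside 10.2% and 12.0% of all genes. The lists were chosen with earlier results of these data known, so nothing is read from these shares. The rescue against KO count of 16 was 0 without KO replicate 2 and 28 without rescue replicate 1, and the KO against wild type count of 50 was 33 without wild type replicate 1. Of the list calls named above, DESeq2 did not make those of Lrp1, Herc2, Flvcr1, Nubp1 and Nubp2 in rescue against KO. It also did not make that of Cul1 in KO against wild type, or those of Slc39a8 and Atp7b in rescue against wild type.

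**Figure D4:**
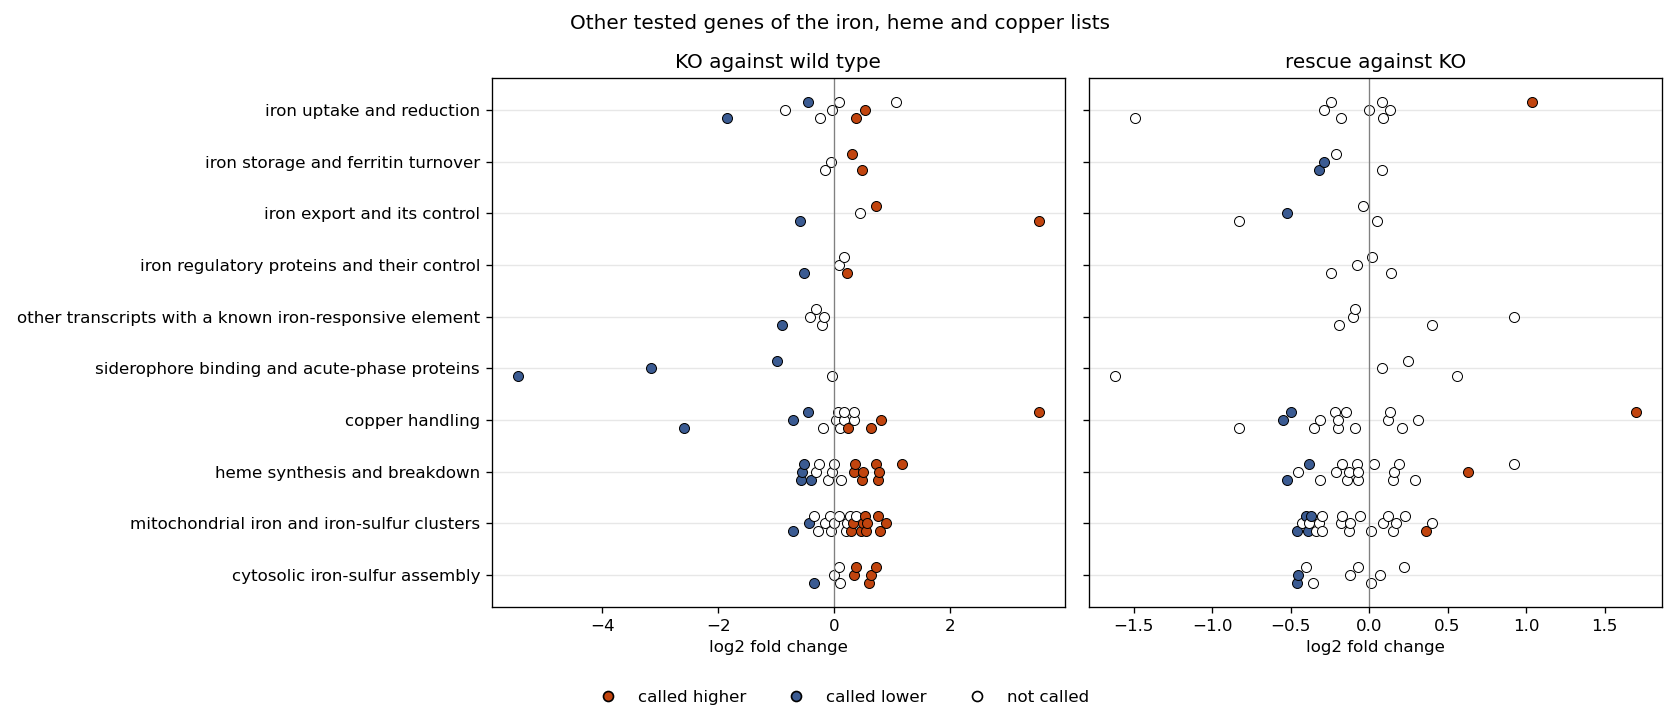
Log2 fold change (x axis, a different scale in each panel) of the tested genes in each iron, heme and copper list other than the 10 genes, for KO against wild type and rescue against KO, 1 point per gene. Filled points are called at an adjusted p under 0.05, and the acute-phase genes Lbp and C3 lie farthest to the left in KO against wild type.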

How the data were processed

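Poly-A RNA of 6 KP2 libraries was sequenced, and groups were taken from the sample titles. Per the submitters' processing notes, the tools were bcl2fastq, STAR 2.0.4b, Subread and featureCounts 1.45 with build GRCm38. Strand setting and annotation release: not given in the sources used here. The authors deposited, per the file headers, read counts with CPM and RPKM values beside them. Recomputing CPM from the counts and RPKM from the CPM and the listed gene length gave the deposited CPM to within 3.3e-11 and the deposited RPKM to within 7.6e-11.

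Symbols, UTRs and coordinates came from GENCODE M21 (GRCm38), which named 40254 of 41388 identifiers. Genes were kept by filterByExpr (minimum count 10, minimum total 15), leaving 12339 tested and 29049 not tested. TMM-scaled counts of the 3 groups went into 1 fit of edgeR's quasi-likelihood test (edgeR 4.0.16, R 4.3.3; 3 residual degrees of freedom). Benjamini-Hochberg adjustment ran over all genes in the fit, and an adjusted p under 0.05 made a call. The SE is the log2 fold change over the square root of F. The RPKM used between genes was recomputed with TMM totals and was 0.954 to 1.05 times the deposited value.

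The 10 genes, the lists and the alternatives were chosen with earlier results of these data known. The named genes are the 10, Irak4, the 5 most like Cp (mean of at least 5 CPM, log2 CPM with a prior count of 2) and up to 3 called genes of each list by smallest adjusted p. Outside that rule, Ncoa4 of the turnover list, Slc39a14 of the acute-phase list and the marker genes were named after their values were seen. Alternatives were size-factor scaling (RLE), DESeq2 1.42.0, no filter, a stricter filter (mean of at least 5 CPM), only the groups compared, a replicate block, and each library left out. Replicates differed by more than sampling noise, with chi-square over degrees of freedom of 8.22 in rescue, 4.18 in KO and 3.58 in wild type, and none was merged. Interval and floor statements cover counting error only.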

Additional observations from a re-analysis of the deposited data

How the results depend on the processing

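No called fold change among the 10 genes changed sign under the 13 alternatives run. The 6 calls among the 9 genes in KO against wild type stood throughout, with 6 to 8 calls when 1 library was left out. In rescue against KO the 7 calls became 4 with only the groups compared, 5 in DESeq2 (Steap3 and Lcn2 lost) and 1 to 6 with 1 library left out. In rescue against wild type the 3 calls were 3 to 5 with 1 library left out. The list counts were 33 to 52 (KO against wild type, 50), 0 to 28 (rescue against KO, 16) and 6 to 27 (rescue against wild type, 21) with 1 library left out. In DESeq2 they were 7 in rescue against KO and 11 in rescue against wild type, and with only the groups compared 8 in rescue against KO. Over all genes, leaving out 1 library gave 3693 to 6668 (KO against wild type, 5772), 203 to 3445 (rescue against KO, 1756) and 1108 to 3652 (rescue against wild type, 2744). In rescue against KO, DESeq2 called 1145 genes and the fit with only the groups compared 1044. The cause of these shifts was not tested.

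The replicate numbers gave no pairing: correlations of same-numbered deviations were -0.192 for rescue and KO, -0.153 for rescue and wild type and 0.037 for KO and wild type. With the replicate block the list counts were 8 in rescue against KO and 12 in rescue against wild type, all-gene counts were 5203 (KO against wild type), 1194 (rescue against KO) and 2157 (rescue against wild type), and among the 9 genes only Steap3 in rescue against KO lost its call. Because 2 of the correlations were below -0.1, a block with the rescue numbers crossed was added after seeing the data, and called 6180 genes in KO against wild type, 2560 in rescue against KO and 3314 in rescue against wild type. With the crossed block the list counts were 53 in KO against wild type, 23 in rescue against KO and 25 in rescue against wild type.

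With 2 libraries a group and 3 residual degrees of freedom, whether small differences such as that of Tfrc passed depended on the fit. Lcn2, Lbp, C3 and Heph rest on few counts in the groups where they are low.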
